A study of Mus musculus with 12 samples.

Results

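The regions described here are H4K20me3 domains of mouse embryonic stem cells that lie over long noncoding RNA (lncRNA) genes and touch no protein-coding gene. They were chosen from 1 deposited list of 28210 domains by 4 conditions: a place on chromosomes 1 to 19, a start at or beyond 8000000, a width of at least 1 kb and under 10 kb, and at least 1 base shared with a RefSeq lncRNA gene body and none with a protein-coding gene body. Of the 20695 domains that met the conditions on chromosome, start and width, 1571 (7.59%) met the last one too, which is 5.57% of the whole list. They are called lncRNA-only domains below. They overlapped 1168 lncRNA genes, called hosts.

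The study treated stem cells of the line dTKO, with the genotype Suv39h1fl/fl, Suv39h2-/- and Setdb1fl/fl, with auxin at 100 μg/ml plus dTAG13 at 0.5 μM for 0, 12, 24 or 48 h, and made 3 ChIP-seq libraries at each time. The genotype and both agents are given for every library, 0 h included, and whether the line is 1 clone is not stated in the sources used here. Its question was how H4K20me3 decays after loss of H3K9 methyltransferases. The list, whose contig names are those of mm10 (GRCm38), names no library or time and holds no signal, so no decay, replicate error or depth could be measured, and each value below is a count or position in that 1 list, given without a test. Domain positions also do not allow a check of the cell type by its markers, and domains of 1 host share their gene and are not independent of each other.

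H4K20me3 is trimethylation of lysine 20 of histone H4. It is placed largely by the enzymes Kmt5b and Kmt5c in chromatin that already carries H3K9me3 and HP1, and it is known from pericentric repeats, telomeres and silenced transposable elements of mouse embryonic stem cells. Long noncoding RNA genes are transcribed without a known protein product. Most have no studied function, some act on neighbouring genes or at imprinted clusters, and many mouse ones are annotated only as computed transcript models.

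Promoters that lay inside lncRNA-only domains are printed first, since they show how unlike the marked start sites are. Each is the RefSeq window of 300 bases on GRCm38.p6, from 250 bases before the annotated start to 50 bases after it, 5′ to 3′ on the strand of the gene, with CG dinucleotides in capitals. The genes are the first 5 named by the selection rule for promoters.
Platr5 (chr1:88754640-88754939, plus strand): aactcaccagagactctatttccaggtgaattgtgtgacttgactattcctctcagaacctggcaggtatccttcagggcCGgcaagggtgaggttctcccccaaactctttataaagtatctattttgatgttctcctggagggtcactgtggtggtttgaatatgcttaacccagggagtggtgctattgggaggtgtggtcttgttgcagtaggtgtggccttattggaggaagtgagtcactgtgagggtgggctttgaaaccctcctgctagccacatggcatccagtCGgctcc
Junos (chr4:95075386-95075685, plus strand): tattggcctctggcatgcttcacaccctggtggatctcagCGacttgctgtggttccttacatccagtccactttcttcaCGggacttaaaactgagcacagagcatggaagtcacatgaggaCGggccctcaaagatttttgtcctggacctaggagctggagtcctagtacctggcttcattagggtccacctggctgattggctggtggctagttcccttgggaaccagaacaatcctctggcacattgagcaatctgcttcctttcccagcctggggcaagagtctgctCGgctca
Gm42000 (chr3:15055845-15056144, plus strand): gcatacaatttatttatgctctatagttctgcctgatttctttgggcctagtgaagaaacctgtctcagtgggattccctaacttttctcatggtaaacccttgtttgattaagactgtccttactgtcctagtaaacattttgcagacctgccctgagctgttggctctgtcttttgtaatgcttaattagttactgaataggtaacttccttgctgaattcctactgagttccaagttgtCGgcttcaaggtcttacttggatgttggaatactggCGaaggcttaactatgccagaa
Gm42228 (chr5:23852990-23853289, minus strand): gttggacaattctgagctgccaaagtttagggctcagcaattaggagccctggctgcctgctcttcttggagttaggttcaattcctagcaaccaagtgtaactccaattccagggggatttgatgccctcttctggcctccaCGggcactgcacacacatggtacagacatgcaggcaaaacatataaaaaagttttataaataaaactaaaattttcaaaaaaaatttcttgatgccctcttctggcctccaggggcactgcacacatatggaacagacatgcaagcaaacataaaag
2700038G22Rik (chr5:23850347-23850646, plus strand): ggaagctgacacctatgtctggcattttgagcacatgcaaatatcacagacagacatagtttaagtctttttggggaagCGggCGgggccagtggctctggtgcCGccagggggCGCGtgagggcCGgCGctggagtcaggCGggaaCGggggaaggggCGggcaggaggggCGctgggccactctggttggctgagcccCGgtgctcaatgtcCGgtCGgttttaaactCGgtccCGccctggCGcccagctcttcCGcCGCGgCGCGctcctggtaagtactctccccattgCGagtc
The Platr5 window held 2 CG dinucleotides, Junos 4, Gm42000 2, Gm42228 1 and 2700038G22Rik 23. Gm42228 and 2700038G22Rik overlap each other and are transcribed in opposite directions inside the same domain of 8.40 kb, so a CG-poor and a CG-rich start stood under 1 domain. Of 3 further promoters that the rule names and that are not printed, Gm42031 and 4933414I15Rik each held 16 CG dinucleotides, and Gm20362 held 5.

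A second set is printed because its letters recur at distant places. The stretch of 20 bases in capitals was the one found in the promoters of most separate places among hosts with their start in a domain. It is shown with 20 bases on either side, on the strand that reads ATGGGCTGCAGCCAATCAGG.
Gm46244 (chr1:113145276-113145335, plus strand): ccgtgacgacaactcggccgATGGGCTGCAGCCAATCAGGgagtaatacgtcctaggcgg
Gm19757 (chr6:105492713-105492772, minus strand): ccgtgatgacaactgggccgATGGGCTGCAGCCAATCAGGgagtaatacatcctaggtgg
Gm32263 (chr7:48768391-48768450, plus strand): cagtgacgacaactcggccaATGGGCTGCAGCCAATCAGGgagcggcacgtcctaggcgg
Gm40518 (chr9:48158899-48158958, minus strand): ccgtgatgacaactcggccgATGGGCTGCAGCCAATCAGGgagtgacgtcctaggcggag
Gm20110 (chr10:99609045-99609104, minus strand): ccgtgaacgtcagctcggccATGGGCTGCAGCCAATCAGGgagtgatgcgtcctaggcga
LOC115487747 (chr11:113173140-113173199, plus strand): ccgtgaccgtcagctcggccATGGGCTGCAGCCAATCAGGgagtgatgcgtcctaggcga
Gm46490 (chr14:123632002-123632061, plus strand): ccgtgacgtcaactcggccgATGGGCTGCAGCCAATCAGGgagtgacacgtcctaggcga
Gm32026 (chr19:16084139-16084198, plus strand): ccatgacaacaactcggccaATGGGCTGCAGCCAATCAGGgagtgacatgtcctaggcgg
These windows lie on 8 chromosomes. Compared pair by pair without gaps, their 40 flanking bases had 17 to 39 equal letters, with a median of 26.5. In 4 of the 8 the printed strand is also the direction of transcription. Among promoters without that stretch, the next most shared one was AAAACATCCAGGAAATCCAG, found at 5 places.
4930431F12Rik (chr5:44966063-44966122, minus strand): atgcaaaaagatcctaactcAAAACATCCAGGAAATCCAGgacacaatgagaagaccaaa
4930431F10Rik (chr10:44739011-44739070, plus strand): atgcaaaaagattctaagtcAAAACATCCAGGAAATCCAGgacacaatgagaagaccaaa
Gm31630 (chr13:92895527-92895586, minus strand): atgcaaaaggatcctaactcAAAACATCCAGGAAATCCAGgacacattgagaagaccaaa
4930435F18Rik (chr13:116838262-116838321, plus strand): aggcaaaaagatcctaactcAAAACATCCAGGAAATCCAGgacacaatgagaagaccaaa
Gm29904 (chr15:61288277-61288336, minus strand): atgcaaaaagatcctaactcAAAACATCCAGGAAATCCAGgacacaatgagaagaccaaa
The 40 flanking bases of these 5 windows had 36 to 40 equal letters pair by pair. In all of them the printed strand is opposite to the direction of transcription. The gene table used here has no repeat annotation, so no repeat name is given to either stretch.

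One microRNA gene, Mir8117, lay wholly inside a lncRNA-only domain (chromosome 5, 50251351 to 50255400, 4.05 kb, over the host Gm40301). Its mature form is printed with the seed, bases 2 to 8, in capitals.
mmu-miR-8117 (chr5:50252823-50252843, plus strand): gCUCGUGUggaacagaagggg

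Start sites in lncRNA-only domains carried recurring sequence more often than other lncRNA starts did. Of 201 annotated starts in a domain, from 177 genes, 125 (62.2%) held a stretch of 20 bases that was also present in a promoter at another place, on either strand, where a chain of starts no more than 100 kb apart counts as 1 place. Of the 201 starts, 193 belonged to lncRNA genes clear of protein-coding bodies and the rest did not. Among 6838 other starts, all of clear lncRNA genes, 1866 (27.3%) held such a stretch. Within that second set, 839 starts belonged to hosts whose domains lay elsewhere in the gene, and 230 of these (27.4%) held such a stretch. Over all 32851 promoters of the table the share was 25.7%.

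Stretches with many copies showed the same order. In 45 of the 201 starts (22.4%) a stretch recurred at 10 or more other places, against 7.36% of the other starts and 6.32% of the hosts' starts outside their domains. The printed stretch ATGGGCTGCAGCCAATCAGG stood in 9 of the 201 promoters, at 8 places, and in 22 promoters at 21 places of the whole table, or 0.0670% of its promoters. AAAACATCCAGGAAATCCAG stood at 5 places in the domains and at 10 in the table (0.0304% of promoters). Both printed stretches were chosen because they reach the most places among starts in domains. Their frequency there beside the table share follows from that choice and is no evidence of its own. The search for recurring stretches was added after other values had been seen. A match says only that the letters are shared.

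CG content separated the start sites less. The 201 starts in domains and the 6838 other starts both had a median of 4 CG dinucleotides per 300 bases, with quartiles of 2 and 8 against 2 and 6. Windows with at least 10 were 22.4% of the starts in domains and 13.1% of the other starts, while 57.9% of protein-coding promoters reached 10. The median GC content was 48.7% in domains and 47.3% outside. The letters TATAAA, searched on both strands, were in 17.4% of the windows in domains, 16.7% of the other lncRNA windows and 13.6% of all promoters of the table.

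**Figure D1:**
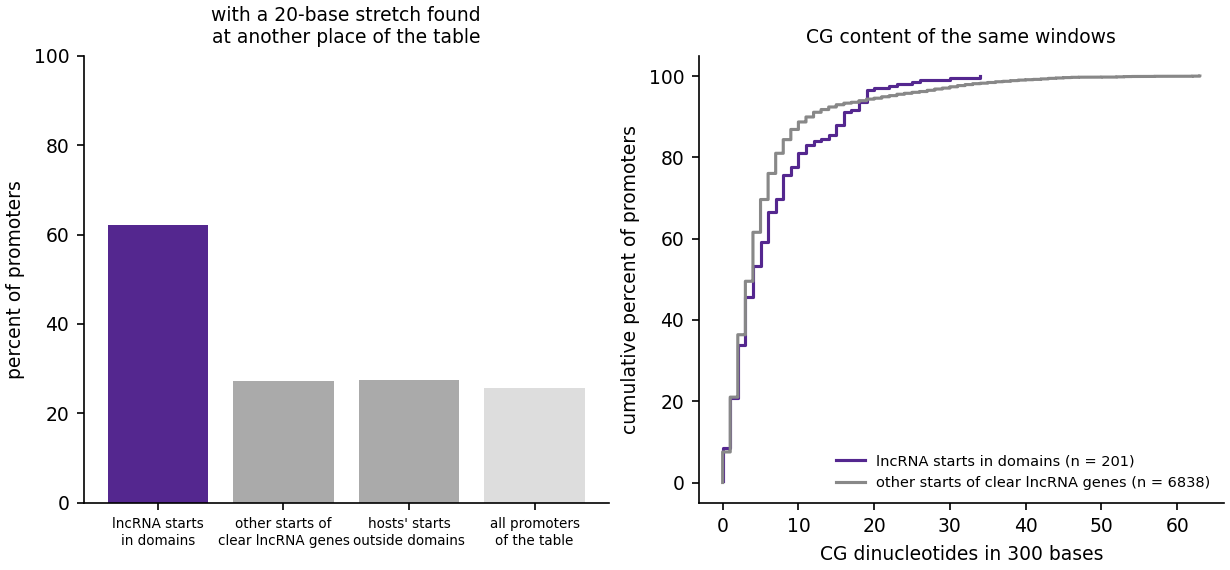
Left, percent of promoter windows that held a stretch of 20 bases found at another place of the promoter table, for 201 lncRNA starts in lncRNA-only domains, other starts of lncRNA genes clear of protein-coding bodies, the part of these that belongs to host genes, and all promoters. Right, cumulative percent of windows by the number of CG dinucleotides; the bar for starts in domains reaches 62.2% and the others 25.7 to 27.4%, while the CG curves lie close together.

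Most hosts carried a single domain, and the median cover of a host body was small. Of the 1168 hosts, 897 had 1 lncRNA-only domain, 184 had 2, 47 had 3, 19 had 4 and 21 had 5 or more. Only 42 of the 1571 domains touched 2 lncRNA genes, and none touched more. Predicted gene names of the Gm type made up 898 hosts, RIKEN clone names 222, LOC names 14 and other names 34. A curated RefSeq transcript existed for 347 hosts (29.7%).

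The domains took up a median of 8.87% of the host body, with quartiles of 4.24 and 18.9%. At least 25% was covered in 227 hosts (19.4%) and at least 50% in 91 (7.79%), and the latter had a median length of 4.02 kb against 29.9 kb for all hosts. Counting every domain of the list, whatever its width, the median cover was 9.45%, and 107 hosts had more sequence in domains that way. Hosts under 5 kb were covered over a median of 49.7%, those of 20 to 50 kb over 9.21%, and those of 100 kb or longer over 3.42%. A single domain, at most 9.90 kb wide, can cover no more than a small share of a long body.

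**Figure D2:**
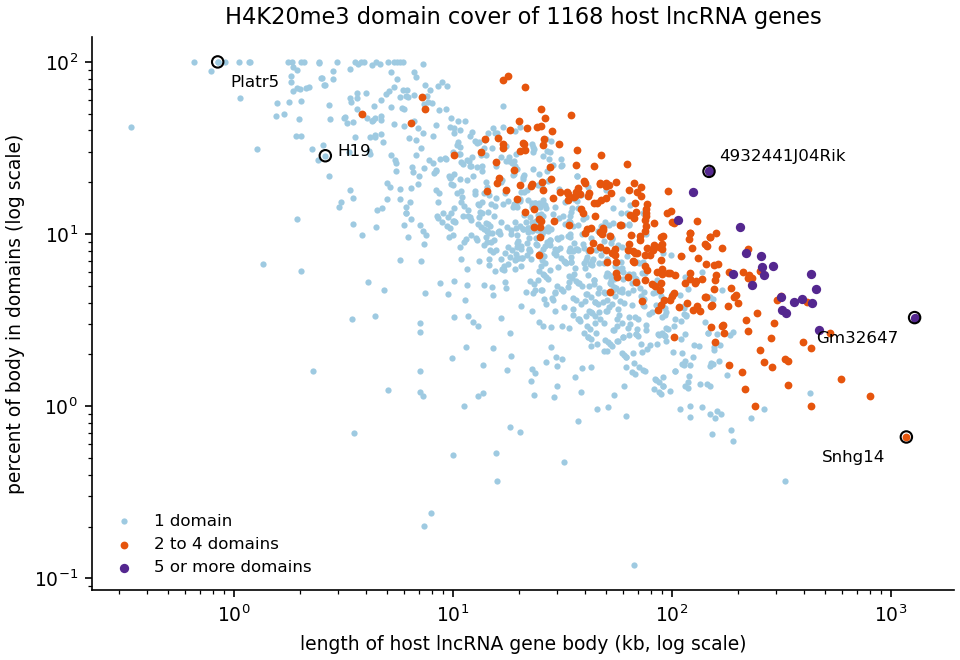
Each point is 1 of 1168 host lncRNA genes, with the length of the gene body in kb and the percent of it inside lncRNA-only domains, both on log scales, coloured by the number of domains. Platr5 lies at 100%, 4932441J04Rik stands out among long genes at 23.1%, and Gm32647 has the most domains.

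Read against all lncRNA genes, hosts were a minority, and mostly the long ones. Of 7599 lncRNA genes that began beyond 8 Mb and were clear of protein-coding bodies, 1011 (13.3%) had a lncRNA-only domain. Of all 11888 lncRNA genes beyond 8 Mb it was 9.82%. Among the clear genes, the share was 4.11% under 5 kb, 8.78% at 5 to 20 kb, 24.0% at 20 to 50 kb, 49.9% at 50 to 100 kb and 68.0% at 100 kb or longer. Cover per base varied much less: the domains held 2.32% of the summed bodies under 5 kb, 2.11% at 5 to 20 kb, 2.84% at 20 to 50 kb, 3.30% at 50 to 100 kb and 2.84% at 100 kb or longer. Clear hosts had a median length of 27.1 kb, against 7.25 kb for clear genes without such a domain. Clear genes with a curated transcript were hosts in 14.5% of cases and genes with predicted transcripts alone in 12.9%.

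By sequence, lncRNA bodies stood between protein-coding genes and the space outside both. Domains of 1 to 10 kb covered 2.74% of the 163.8 Mb of lncRNA bodies outside protein-coding bodies, against 1.39% of protein-coding bodies and 4.42% of sequence in neither. With domains of any width the shares were 3.50% of lncRNA bodies, 1.83% of protein-coding bodies and 5.98% of sequence in neither. These lncRNA bodies made up 7.10% of the sequence and 6.37% of the bases in domains of this width.

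The 10 hosts with the most marked sequence were long genes, and 3 of them overlapped a protein-coding body outside their domains. Gm32647 on chromosome 7 (94042496 to 95326426, 1284 kb) held 15 domains of 1.20 to 7.20 kb, 42.0 kb in all, which was 3.27% of its body. Its nearest protein-coding genes, Gm15501 and Tenm4, which encodes a teneurin of neuronal cell contacts, lay 884.8 to 1462 kb from those domains. The first domain began at 94371451 and the last ended at 95286450, and the sequence below them held none.

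The next host was unlike the others in how densely it was covered. 4932441J04Rik on chromosome 5 (57570084 to 57717919, 147.8 kb) had 7 domains of 1.20 to 9.15 kb with 34.2 kb in all, 23.1% of its body. These lay 17.9 to 127.4 kb from Pcdh7, a protocadherin gene. Gm41225 on chromosome 14 (88636049 to 88760924) had 6 domains with 22.05 kb, 17.7% of 124.9 kb. Those 6 domains formed the largest run of lncRNA-only domains with gaps under 10 kb, from 88654201 to 88696350, a span of 42.15 kb, and were 182.8 to 222.6 kb from Pcdh20, another protocadherin gene. With domains closer than 5 kb merged they join into wider domains beyond the width limit, and the host has none left.

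Other long hosts had scattered domains. Gm29536 on chromosome 1, 432.9 kb long, had 7 domains with 25.5 kb (5.89%) at 7.82 to 303.9 kb from Kcne4, which encodes a potassium channel subunit. With domains of any width its cover was 40.05 kb (9.25%). Gm41323 on chromosome 15 had 5 domains with 22.65 kb (11.0%), of which 4 were nearest to Med30, a Mediator subunit gene, and 1 to Ext1, a gene of heparan sulphate synthesis. Gm27243 on chromosome 4 had 6 domains with 21.9 kb (4.80%), and 38.4 kb (8.42%) with domains of any width. Gm41534 on chromosome 17 had 8 domains with 19.2 kb (7.48%), 434.3 to 578.3 kb from Rgmb, a co-receptor gene of BMP signalling.

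The last 3 of the 10 hosts with the most marked sequence were curated RIKEN genes. 1700123O12Rik on chromosome 4 had 5 domains with 18.9 kb (6.52%). A230057D06Rik on chromosome 7 had 4 domains with 18.15 kb (8.19%), 440.4 to 548.6 kb from Ndn, the imprinted necdin gene. 4930474G06Rik on chromosome 18 had 6 domains with 17.4 kb (3.97%), 1445 to 1677 kb from Pik3c3, which encodes a lipid kinase of autophagy.

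**Figure D3:**
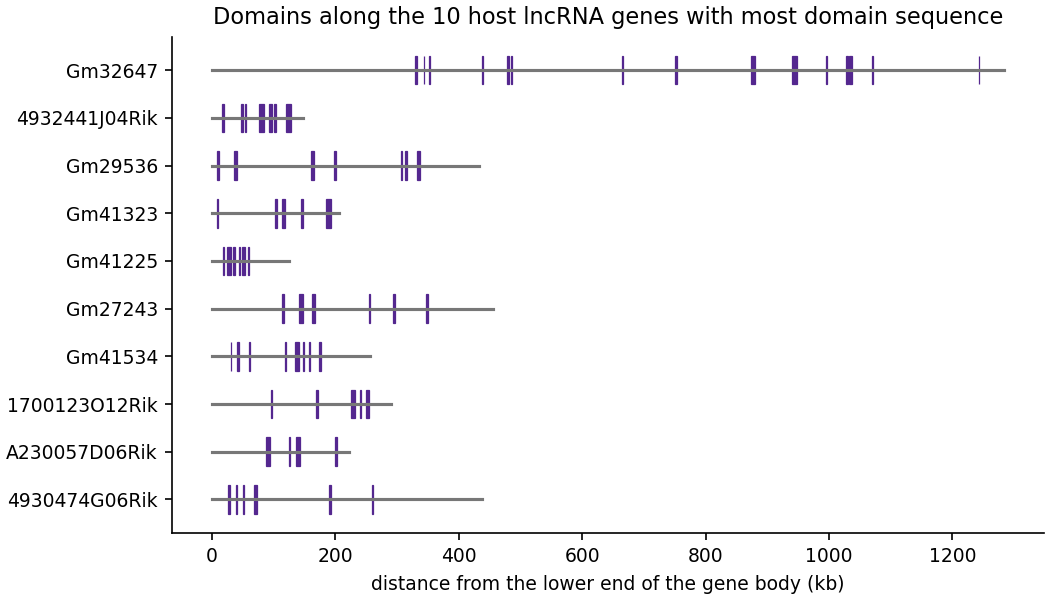
Grey lines are the bodies of the 10 host lncRNA genes with the most sequence in lncRNA-only domains, drawn from the lower end of each body in kb, and purple blocks are the domains, to scale. The 6 domains of Gm41225 sit side by side, while the 15 of Gm32647 are spread over much of its body.

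A second kind of host was short and swallowed whole. In 21 hosts the complete body lay inside 1 domain, and these had a median length of 2.10 kb and a longest of 5.89 kb. Of these, 12 were 2 kb or longer and 9 were shorter. The first 10 of the 12 in genome order are described here, since all tie at 100%, and the 2 beyond them were Gm36734 (2.10 kb) and Gm43305 (5.05 kb). Gm42031 on chromosome 8 (85125923 to 85131814, 5.89 kb) lay in a domain of 6.60 kb, 2.66 kb from Zfp791, a zinc finger gene. Gm42000 on chromosome 3 (15056095 to 15061831, 5.74 kb) lay in a domain of 9.60 kb. Gm39850 on chromosome 2 (73008979 to 73014349, 5.37 kb) lay in a domain of 6.60 kb, 27.6 kb from Sp3, a transcription factor gene.

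The other 7 of these 10 were 2.03 to 4.44 kb long. 2700038G22Rik (4.44 kb) and Gm42228 (3.59 kb) shared their domain on chromosome 5 (23847601 to 23856000), which also held the snoRNA gene Snord93 and lay 3.46 kb from Tomm7, a gene of the mitochondrial import complex. 4933404K08Rik on chromosome 13 (3.92 kb) was 26.8 kb from the vomeronasal receptor gene Vmn1r223. Gm20362 on chromosome 6 (3.83 kb) was the most remote of these, at 562.1 kb from Reg3g. Gm51895 (2.96 kb) and 4933414I15Rik (2.03 kb) were on chromosome 11, and Gm39557 (2.46 kb) was on chromosome 7.

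Among lncRNA genes with a known role the counts were small. Of 16 Platr genes, transcripts first listed for their link to pluripotency in mouse embryonic stem cells, 1 (6.25%) had a lncRNA-only domain, against 9.82% of all lncRNA genes. All 16 were clear of protein-coding bodies, and of all clear lncRNA genes 13.3% had such a domain. The 16 had a median length of 9.63 kb, and 8.78% of clear lncRNA genes of 5 to 20 kb were hosts. The 1 Platr host was Platr5 on chromosome 1 (88754890 to 88755733), whose 0.844 kb lay wholly inside a domain of 2.55 kb, 51.8 kb from Arl4c. Its promoter, printed above, lay in that domain in full. Of 26 lncRNAs with studied roles, such as Hotair, Fendrr and Pvt1, none had a lncRNA-only domain, and 1 overlapped any domain of the list. The share over all lncRNA genes was 9.82%. Of the 26, 20 were clear of protein-coding bodies, and the share over all clear lncRNA genes was 13.3%. The 26 had a median length of 17.5 kb, also in the range of 5 to 20 kb with its share of 8.78%. The list is small, and neither the absence nor the part of gene length was tested. These lists were chosen with earlier results of these data known.

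Imprinted genes and small RNA hosts also gave small counts. Among 10 imprinted lncRNA genes, Meg3, Airn and Kcnq1ot1 included, 2 (20.0%) had a lncRNA-only domain, against 9.82% of all lncRNA genes. Of the 4 clear of protein-coding bodies, 1 (25.0%) had one, against 13.3% of all clear lncRNA genes. The 10 genes had a median length of 48.1 kb, and 24.0% of clear lncRNA genes of 20 to 50 kb were hosts. The part of gene length in these shares was not tested. H19, the maternally expressed gene next to Igf2 on chromosome 7 (142575530 to 142578146), had 0.746 kb (28.5%) under a domain of 6.30 kb from 142577401 to 142583700, most of which lay beyond the upper end of the gene body. Snhg14, the very long transcript that hosts snoRNAs and runs antisense to Ube3a, had 2 such domains with 7.80 kb, 0.662% of its 1177 kb. It overlapped 12 domains of any kind with 35.7 kb (3.03%), of which 8 also touched a protein-coding body and 2 were outside the width limits. Snhg14 was also the 1 host (5.88%) among 17 snoRNA host genes, beside the same 9.82%. Of the 13 snoRNA host genes clear of protein-coding bodies, 0 had such a domain, beside 13.3% of all clear lncRNA genes. The 17 had a median length of 2.84 kb, and 4.11% of clear lncRNA genes under 5 kb were hosts.

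Of 14 microRNA host genes, 2 (14.3%) carried domains, against 9.82% of all lncRNA genes. Both were among the 13 clear of protein-coding bodies (15.4%), against 13.3% of all clear lncRNA genes. Mir100hg on chromosome 9 had 2 domains of 1.20 kb each (1.01% of 238.7 kb), and Mir99ahg on chromosome 16 had 1 of 1.95 kb (0.851%). Of 205 opposite-strand transcripts, named for a protein-coding gene on the other strand, 14 (6.83%) were hosts, against 9.82% of all lncRNA genes. Of the 47 that were clear of protein-coding bodies, 6 (12.8%) were hosts, against 13.3% of all clear lncRNA genes. The median length was 14.3 kb for the 14 microRNA host genes and 8.71 kb for the 205 opposite-strand transcripts. Of clear lncRNA genes of 5 to 20 kb, 8.78% were hosts. The 4 with the most marked sequence were Zmiz1os1 (3 domains, 5.85 kb, 3.85%), Zfp85os (5.70 kb, 20.7%), Pax6os1 (4.80 kb, 3.58%) and Junos (4.65 kb, 3.98%). The Zfp85os domain lay 1.22 kb from the zinc finger gene Zfp65, and the Junos domains lay 22.9 and 58.4 kb from Jun, an immediate early transcription factor gene.

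Domains mostly lay within the host rather than across its ends. In all, 1239 of the 1571 (78.9%) were wholly inside 1 lncRNA body, and 332 (21.1%) were not. For the 937 hosts found in the promoter table, 177 (18.9%) had an annotated start in a domain. Of all 7031 annotated starts of clear lncRNA genes, 2.74% lay in one. The first share is of genes chosen for holding a domain and the second is of starts, so they cannot be compared. Domains of 1 to 10 kb covered 2.74% of lncRNA bodies outside protein-coding bodies, the same share as that of the starts. Hosts with a marked start were shorter than hosts in the table without one, with medians of 10.0 against 39.1 kb, and had a cover of 16.2% against 8.06%. A domain takes up more of a short body than of a long one, and so includes its start more easily. How much of both differences comes from this geometry was not tested. Among pairs of a domain and a host body that crossed 1 end, 144 crossed the 5′ end and 121 the 3′ end, and strand was not known for 71 of 336.

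Inside the hosts, the domains were split nearly evenly between the 5′ and the 3′ side. Over 1002 pairs with known strand, the midpoints had a median at 49.8% of the way from the 5′ to the 3′ end. Cut into 5 equal parts from 5′ to 3′, the body held 16.2%, 21.5%, 24.2%, 22.0% and 16.3%. A domain wholly inside a body cannot have its midpoint at the very end, which lowers both outer parts.

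**Figure D4:**
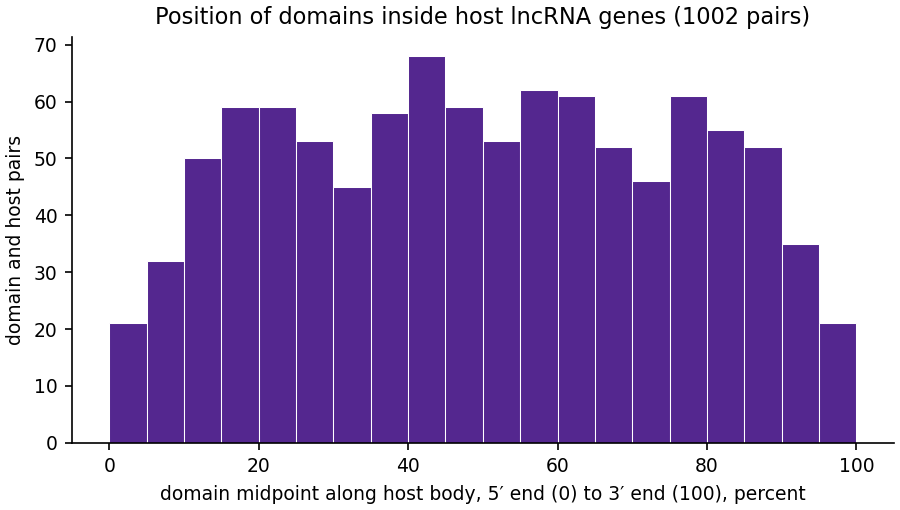
Number of domain and host pairs by the position of the domain's midpoint along the host body, in percent from the 5′ end (0) to the 3′ end (100), for 1002 pairs with the domain wholly inside. The bars are highest around the middle, where the central part of 5 holds 24.2%, and lowest at both ends.

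The lncRNA-only domains varied widely in distance from protein-coding genes, and were less often extremely far than domains over no gene. Their distance to the nearest protein-coding body had a median of 82.3 kb, with quartiles of 25.8 and 224.6 kb. The 585 domains over pseudogenes, without a lncRNA or protein-coding body, had a median of 36.7 kb, and the 14105 over no annotated gene had 107.6 kb. Distances over 500 kb made up 8.53% of lncRNA-only domains, 9.06% of pseudogene domains and 17.6% of domains over no gene. Within 50 kb lay 39.8% of lncRNA-only domains, 56.9% of pseudogene domains and 36.5% of domains over no gene. Within 5 kb lay 5.60% of lncRNA-only domains, 9.74% of pseudogene domains and 6.51% of domains over no gene.

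The nearest domains almost touched a protein-coding gene. Domain ends lie on a grid of 150 bases, so distances below that, and their order, are not resolved. The 5 nearest domains were 59 bases from Tmprss2 (host Gm41512), 61 from Mis18a (Gm46569), 69 from Zranb2 (4930592C13Rik), 70 from Ogfod2 (Gm16001) and 188 from Atf7ip (Gm44140). Atf7ip encodes a partner of Setdb1, and Mis18a a factor that prepares centromeres. The 5 farthest lay 2212 kb from Pcdh20 (Gm33246), 2055 kb from Celf4 (Gm33674), 1828 kb from G6pd2 (4933402J10Rik), 1677 kb from Pik3c3 (4930474G06Rik) and 1669 kb from Pcdh20 (4930474H20Rik).

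Close to protein-coding genes, the domains stood more often beyond the 5′ end. Of 67 lncRNA-only domains under 5 kb from a protein-coding gene of known strand, 50 (74.6%) lay on its 5′ side, against 47.8% of 46 pseudogene domains and 48.9% of 745 domains over no gene. The lncRNA genes themselves have that bias: of 1218 clear lncRNA bodies under 5 kb from a protein-coding body, 70.2% lay on the 5′ side. The domains' share is thus near that of the annotation.

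The gap to the nearest other domain was wider than for the other classes. Its median was 24.3 kb for lncRNA-only domains, 12.75 kb for pseudogene domains and 17.4 kb for domains over no gene. Gaps over 50 kb made up 28.5% for lncRNA-only domains, 16.1% for pseudogene domains and 19.4% for domains over no gene. The median width was 2.85 kb for lncRNA-only domains, 3.45 kb for pseudogene domains and 2.85 kb for domains over no gene. Of the 1571 domains, 1276 (81.2%) had no other lncRNA-only domain within 10 kb. The 138 runs of 2 or more included 4 domains over Gm32009 on chromosome 6 (95839501 to 95868600) and 3 over Gm46174 on chromosome 1 (178280401 to 178303500), beside the run over Gm41225.

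**Figure D5:**
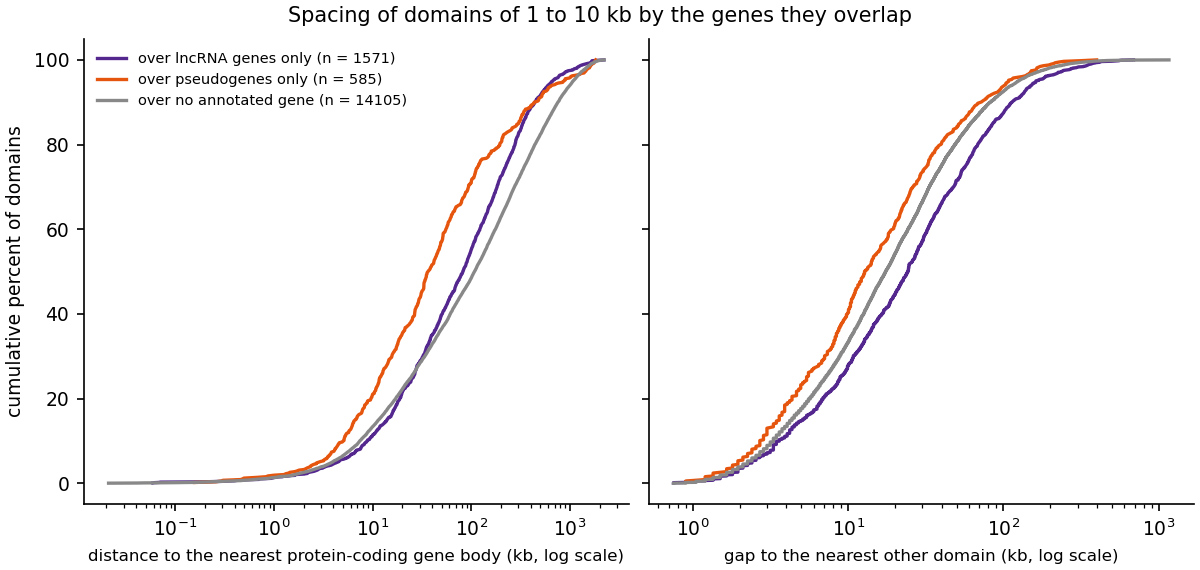
Cumulative percent of domains by distance to the nearest protein-coding gene body (left) and by gap to the nearest other domain (right), in kb on log scales, for domains over lncRNA genes only, over pseudogenes only and over no annotated gene. On the left the lncRNA-only curve has its median at 82.3 kb, between 36.7 kb over pseudogenes and 107.6 kb over no gene, and at short distances it runs along the no-gene curve; on the right it lies farthest to the right, with a median of 24.3 kb.

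Every autosome held lncRNA-only domains, from 30 on chromosome 19 to 130 on chromosome 1. As a share of domains of the same width they ranged between 5.21% on chromosome 6 and 10.2% on chromosome 10, and per Mb between 0.509 on chromosome 6 and 0.997 on chromosome 13. The cover of lncRNA bodies by domains of this width was lowest on chromosome 18 (1.94%) and highest on chromosome 17 (3.50%). The median distance to a protein-coding gene was 40.7 kb on chromosome 13 and 183.2 kb on chromosome 18, the shortest and the longest.

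Widths were part of the selection and are given once. They had a median of 2.85 kb, quartiles of 1.95 and 4.20 kb and a sum of 5.30 Mb. The list runs on a grid of 150 bases, so the narrowest, 50 domains such as those over Gm34649 and Gm32622 on chromosome 1 and 9330198N18Rik on chromosome 2, were 1.05 kb. The widest, 4 domains such as those over C230029F24Rik, Gm6639 and Gm31114, were 9.90 kb. Just outside the limits were 10.05 kb domains over Gm12381 and Gm30837 and 0.900 kb domains over Gm33222 and Gm38628. In all, 162 domains under 1 kb and 130 of 10 kb or wider, up to 42.0 kb, met every condition but width.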

How the data were processed

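H4K20me3 ChIP-seq libraries were made at 4 times with 3 replicates each, and 1 deposited domain list of 3 columns was used. The deposited list is labelled RSEG, a caller of broad domains; its version, threshold and input libraries are not stated. Per the submitters' processing notes, tools included Bowtie2 (2.3.4.1), deepTools, bedtools and SAMtools (1.1), and the genome builds GRCm38, mm10, mm9 and dm6 are named there without saying which the list uses. The unplaced contigs in the list carry mm10 names that mm9 does not use, so it was read as mm10. Without signal or sample names, no fold change, normalization or depth applies, counting error cannot be given, and no test was run. All but 1 domain lie on a grid of 150 bases, so positions are no finer than that.

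Gene bodies came from a RefSeq table of GRCm38.p6, which is mm10, and starts, strand and sequence from a RefSeq promoter table of the same build. Autosomal genes starting below 3 Mb were left out. Distances are bases between a domain and the nearest body on its chromosome. Positions are 1-based. A start counted as inside when that base lay in a domain. Recurring stretches were searched on both strands, leaving out stretches made of only 1 or 2 different letters. The interval code was tested on 20 sets of simulated intervals against base-by-base counts, and bedtools 2.31.1 gave the same 1571 domains.

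Named hosts follow a rule: the 10 with the most bases in domains, the 10 of 2 kb or longer with the largest cover (ties by chromosome and start), hosts on lists of lncRNA genes (4 of the opposite-strand list), the 3 hosts with most domains, the 5 nearest and 5 farthest domains, and the widest and narrowest. Domains and lists were chosen with earlier results of these data known. Alternatives were another overlap, width, merging, gene set and start. Software was pandas 2.3.3 and numpy 2.4.6 under Python 3.11.15, with matplotlib 3.10.9 for plots and scipy 1.17.1 for intervals.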

Additional observations from a re-analysis of the deposited data

How the results depend on the processing

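No paired analysis was possible because the list names no replicate, so leaving out a replicate was not possible either. Of 58 summary values under alternatives, 46 stayed within 1.5 times (counts) or within the 95% interval of the reported median or share, and 12 did not. That interval treats domains, hosts or starts as independent, which they are not. It is used only as a yardstick for the size of a shift and does not measure error between replicates. With domains of 3 kb or wider only, there were 751 domains, 639 hosts, 545 domains wholly inside a host, a median cover of 11.1%, a median gap of 21.15 kb and 105 genes with a marked start. With at least 50% of the domain inside lncRNA bodies, 83 genes had a marked start, which follows from dropping domains that cross an end. The median distance to a protein-coding gene was 91.8 kb with protein-coding bodies extended by 5 kb, and 97.9 kb without hosts that overlap a protein-coding body, and the first of these removes the nearest domains by construction, while the cause of the second was not tested. Merging domains closer than 5 kb gave a median gap of 30.15 kb. For recurring stretches, 15 bases gave 100% of starts in domains and 99.99% of other clear lncRNA starts, so that length separates nothing, and 30 bases gave 44.3% and 9.90%. The stretch lengths and the alternatives on start sites and single hosts were added after seeing the data. For the 10 hosts with most marked sequence, 71 of 80 values stayed within 1.5 times, 2 were higher, 3 were lower and 4 were lost. Gm41225 had no lncRNA-only domain left after merging at 5 kb, and 4932441J04Rik, Gm29536 and Gm41323 are left out where hosts over a protein-coding body are.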

Other observations

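Some lncRNA-only domains lay in antigen receptor loci, whose variable segments are not counted as protein-coding genes in the gene table. Inside Igh, the immunoglobulin heavy chain locus on chromosome 12, 4 domains over Gm30948, Gm30996 and Gm51964 held 18.3 kb. Inside Tcra, the T cell receptor alpha locus on chromosome 14, 5 domains over Gm30392 and Gm30275 held 15.45 kb, and 3 of these also lay in Tcrd, the delta locus within it. Besides lncRNA genes, 27 lncRNA-only domains touched a pseudogene. A gene of yet another class was touched by 15, which include the domains in Igh and Tcra above. The rest of the 15 touched 5 snoRNA genes and the microRNA gene Mir8117.

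Each of the gene families counted was nearest to a small share of lncRNA-only domains. Among 20556 protein-coding genes, 1103 were olfactory receptor, 351 vomeronasal receptor and 99 cytochrome P450 genes. Another 415 were zinc finger genes and 160 homeobox and related developmental regulators. The shares below are not adjusted for family size. Olfactory receptor genes were the nearest protein-coding gene of 0.573% of lncRNA-only domains, against 5.81% of pseudogene domains and 3.35% of domains over no gene. Vomeronasal receptor genes were nearest to 0.509% of lncRNA-only domains, 7.52% of pseudogene domains and 1.99% of domains over no gene. Cytochrome P450 genes were nearest to 0.509% of lncRNA-only domains, 3.59% of pseudogene domains and 0.659% of domains over no gene. Zinc finger genes were nearest to 2.36% of lncRNA-only domains, 2.39% of pseudogene domains and 1.39% of domains over no gene. Homeobox and related developmental regulators were nearest to 1.46% of lncRNA-only domains, 0.171% of pseudogene domains and 0.971% of domains over no gene. Keratin genes were the neighbour of 1 lncRNA-only domain and histone genes of none, against 1 domain over no gene each. The 1571 domains had 1025 distinct nearest genes, of which 733 were nearest to 1 domain, and Pcdh20 was nearest to the most, 10. No test was made of these shares.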
